A study of Mus musculus with 4 samples.

Results

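The genes described are 10 components of bone morphogenetic protein (BMP) signalling at the cell surface of the embryonic mouse forelimb: the secreted or membrane-bound antagonists Grem1, Nog, Bmper and Bambi, the ligands Bmp2, Bmp4 and Bmp7, and the receptors Bmpr1a, Bmpr1b and Bmpr2. They were chosen by gene name, with earlier results of these data known. All 10 were found among the 17568 genes of the deposited expression table. Expression was measured by SOLiD RNA sequencing in 4 libraries of cultured forelimb buds, 2 from medium with cyclopamine and 2 from control medium. All libraries came from wild-type Swiss Webster embryos at stage E10.25, with 31 to 34 somites. Cyclopamine is a plant alkaloid that blocks Smoothened, the transducer of the Hedgehog signal. The labels used here state no dose, vehicle, time in culture or number of limb buds per library. The labels call the libraries biological replicates without tying them to embryos or litters, so p-values measure the spread between these libraries, which may be partly technical.

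BMP ligands are secreted dimers that bind a complex of type I and type II serine-threonine kinase receptors, which phosphorylate Smad proteins that then enter the nucleus. Antagonists such as Gremlin 1 and Noggin bind the ligands outside the cell and keep them from their receptors. In the limb bud, Sonic hedgehog from the posterior margin maintains Grem1 in the mesenchyme, and Gremlin 1 limits BMP activity so that the apical ectodermal ridge, the signalling epithelium at the tip of the bud, keeps making fibroblast growth factors. The comparison asked which transcripts of the bud differ when the Hedgehog signal is blocked.

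Of the 10 genes, Grem1 alone passed the test, and it fell in cyclopamine. It lies at chr2:113746164-113758646 on the minus strand of mm10 (GENCODE vM21). The RefSeq promoter table (GRCm38.p6) held 6 of the 10 genes. The 250 bases before the Grem1 start site and those before the start site of Bmp4, the ligand with the highest level, are shown as those of the gene that passed and of a ligand that Gremlin 1 binds. Capitals mark GGCGCC, a GC-rich element known to be bound by BMP-activated Smads, and CCAAT on either strand, a common promoter element.

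Grem1, chr2:113758649-113758898, minus strand: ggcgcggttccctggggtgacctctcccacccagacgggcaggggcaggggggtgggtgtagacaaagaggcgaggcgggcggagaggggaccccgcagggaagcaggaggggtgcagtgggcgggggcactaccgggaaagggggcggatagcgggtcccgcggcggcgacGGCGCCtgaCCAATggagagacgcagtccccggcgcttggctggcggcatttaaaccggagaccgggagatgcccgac
Bmp4, chr14:46390670-46390919, minus strand: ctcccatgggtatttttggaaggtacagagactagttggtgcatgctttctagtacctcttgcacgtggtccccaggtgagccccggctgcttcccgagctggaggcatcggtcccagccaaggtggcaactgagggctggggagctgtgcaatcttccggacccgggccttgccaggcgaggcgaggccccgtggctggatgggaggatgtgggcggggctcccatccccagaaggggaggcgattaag

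In the Grem1 window GGCGCC began 78 bases before the start site and CCAAT began 69 bases before it, without overlap. The Bmp4 window held neither element. Neither was particular to Grem1: of the 8 windows of these genes, GGCGCC was in 3 (Grem1, Bmpr1a and Bmpr2) and CCAAT in 3 (Grem1, Bmpr1a and Bmpr1b). Over all 32851 promoter windows of this length, 9.59% held GGCGCC and 33.8% held CCAAT. The GLI element GACCACCCA, searched on both strands, was in 0.225% of all windows and in 0 of the 8 (Bmpr1b has several start sites). A match is a match of letters and was not tested for binding.

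The libraries held between 12010965 and 12962633 gene-assigned reads in cyclopamine and between 9779589 and 13555492 in control. Values are normalized counts per 1000000 reads (CPM), and the level of detection was set at 3 reads, or 0.22 to 0.31 CPM. The direct Hedgehog target Gli1 was lower in cyclopamine, at 8.05 and 4.70 CPM against 56.2 and 56.7 CPM in control. Tbx5, which marks the forelimb, measured 193 and 226 CPM in cyclopamine and 201 and 224 CPM in control, and of 2 hindlimb markers Pitx1 stayed at or below 2.35 CPM, while Tbx4 measured 8.13 and 8.59 CPM in cyclopamine and 9.90 and 5.51 CPM in control. Of 12 markers of neural tube and neurons, 8 were tested. All 8 had log2 fold changes below 0, and 7 passed the threshold as lower. Testing needed a mean of 1 CPM over the 4 libraries, which a gene can reach through control alone. These counts are therefore a description only. The summed level of the 12 was 10.26 and 11.2 CPM in cyclopamine and 45.3 and 79.1 CPM in control. Ina, Olig3 and Neurod4 had 0 reads in both cyclopamine libraries. The summed level of 8 limb mesenchyme markers was 1539 and 1764 CPM in cyclopamine and 1465 and 1548 CPM in control, with 0 of the 8 past the threshold.

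Grem1 measured 22.7 and 24.8 CPM in cyclopamine and 42.8 and 45.3 CPM in control, from 288 and 306 reads against 415 and 616 reads. The libraries of the groups did not overlap, and the gap between the groups was many times the gap within either. The means were 23.8 ± 1.47 CPM in cyclopamine and 44.0 ± 1.72 CPM in control (SD, n = 2 each). On the log2(CPM + 0.5) scale the fold change was -0.88 (SE 0.17, 95% interval -1.24 to -0.52), a change of -45.6% with an interval from -57.6% to -30.1%. Its limma adjusted p was 0.0434, and by p-value Grem1 stood at position 33 among the 13568 genes tested. In that test 0.28% of all genes passed in either direction and 0.236% passed as lower in cyclopamine, against 1 of the 10 genes described. The 10 genes were chosen with earlier results of these data known, so this contrast is a description only. The authors' deposited table gives Grem1 a log2 fold change of -0.89 and a false discovery rate of 0.00188; 0.455% of its genes are under 0.05, and none of the other 9 genes is.

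The size of the Grem1 difference varied little with the libraries included, but its call did not hold throughout. Leaving out each library in turn gave log2 fold changes from -0.94 to -0.82. The limma adjusted p was 0.0582 without control 1, 0.144 without control 2, 0.0594 without cyclopamine 1 and 0.0204 without cyclopamine 2. The part that neural tissue has in the Grem1 difference was not tested. In bulk tissue, fewer cells that express a gene and less RNA per cell cannot be told apart.

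**Figure D1:**
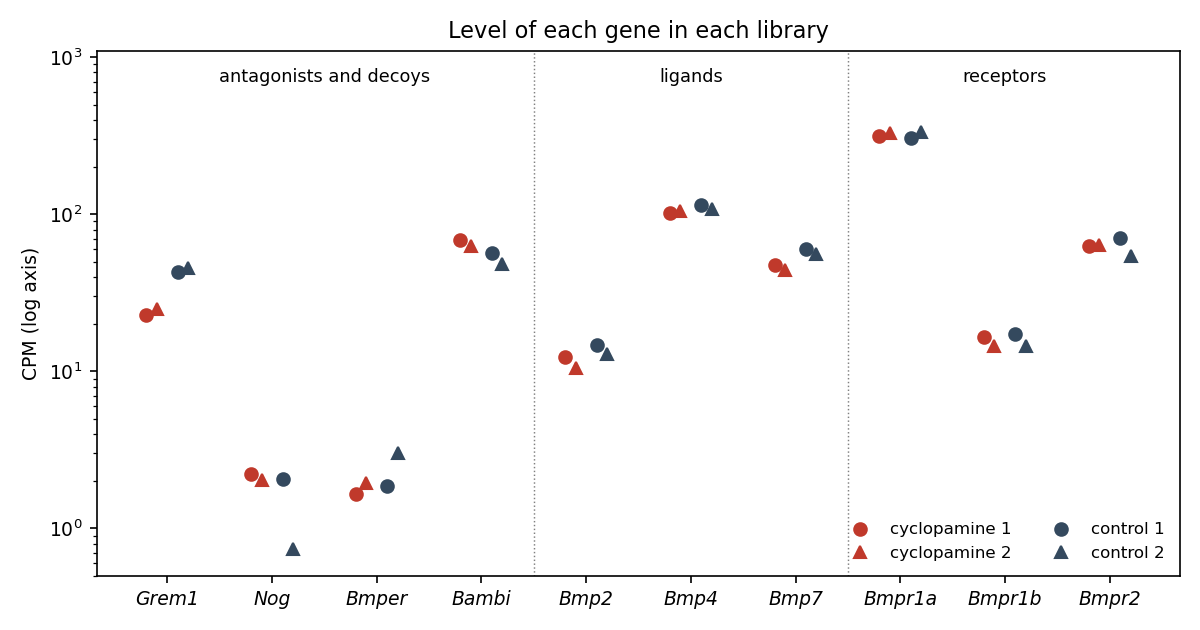
CPM of the 10 genes on a log axis, with a point for each library, cyclopamine in red and control in dark blue, grouped as antagonists and decoys, ligands and receptors. Grem1 sits at 22.7 and 24.8 CPM in cyclopamine, below its control libraries at 42.8 and 45.3 CPM.

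The other antagonists and decoys did not pass the test, and they had values on either side of control. Bambi encodes a transmembrane pseudoreceptor that resembles a type I receptor but has no kinase. It measured 68.9 and 63.1 CPM in cyclopamine and 57.0 and 48.0 CPM in control. Its cyclopamine libraries were thus above both control libraries, opposite in direction to Grem1. The log2 fold change was 0.33 (SE 0.16, limma adjusted p = 0.864), and the 95% interval of the change ran from -0.342% to 59.2%.

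Nog, which encodes the secreted antagonist Noggin, was at a low level, though above the level of detection in every library. It measured 2.21 and 2.03 CPM in cyclopamine and 2.06 and 0.735 CPM in control, from 28 and 25 reads against 20 and 10 reads. Control 2 was low and the other 3 libraries were alike. The log2 fold change of 0.56 (SE 0.44) became 1.08 without control 1 and 0.03 without control 2. Bmper encodes a secreted protein with Chordin-like domains that binds BMPs and can inhibit or promote their signalling. It measured 1.66 and 1.94 CPM in cyclopamine and 1.86 and 3.01 CPM in control, and the groups overlapped (log2 fold change -0.33, SE 0.39). With these standard errors a log2 fold change would have needed a size of 2.23 for Nog and 1.97 for Bmper to be called, against 0.86 for Grem1.

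The ligand genes lay slightly below control, and none of the 3 passed the test. Bmp4, which is made in limb mesenchyme and ridge, measured 101 and 105 CPM in cyclopamine and 114 and 107 CPM in control. Bmp7, a ligand of the same tissues and a close relative of Bmp5 and Bmp6, measured 47.3 and 44.2 CPM in cyclopamine and 59.9 and 55.5 CPM in control. Bmp2, the closest relative of Bmp4, measured 12.3 and 10.5 CPM in cyclopamine and 14.8 and 12.9 CPM in control. For each of the 3 ligands, both cyclopamine libraries were below both control libraries, by a small margin for Bmp2 and Bmp4.

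The log2 fold changes were -0.33 (SE 0.16) for Bmp7, -0.27 (SE 0.22) for Bmp2 and -0.10 (SE 0.15) for Bmp4. For Bmp7 the limma adjusted p was 0.857, the unadjusted p was 0.0503, and the 95% interval of the change ran from -36.8% to 0.0391%. The interval was -40.5% to 15% for Bmp2 and -24.7% to 15.5% for Bmp4. Among all genes tested, 32.6% had groups that did not overlap, so the non-overlap of 5 of the 10 genes (Grem1, Bambi, Bmp2, Bmp4 and Bmp7) is not by itself a result about them. At an unadjusted p under 0.05, 5.82% of all genes passed, and of the 10 genes Grem1 alone did.

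The receptor genes were at near-equal levels in cyclopamine and control. Bmpr1a, the type I receptor needed in the early limb ectoderm and mesenchyme, measured 314 and 330 CPM in cyclopamine and 306 and 333 CPM in control. Bmpr1b, a type I receptor known for its part in cartilage condensation, measured 16.5 and 14.6 CPM in cyclopamine and 17.3 and 14.4 CPM in control. Bmpr2, the type II receptor that is specific to BMPs, measured 63.3 and 63.4 CPM in cyclopamine and 70.6 and 54.5 CPM in control. In all 3 genes the groups overlapped.

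The receptors' log2 fold changes were 0.01 (SE 0.16) for Bmpr1a, -0.03 (SE 0.21) for Bmpr1b and 0.03 (SE 0.16) for Bmpr2. Their 95% intervals ran from -19.8% to 26.8% for Bmpr1a, from -28.0% to 34.0% for Bmpr1b and from -19.8% to 30.0% for Bmpr2. These widths do not show that the levels are the same, but each interval lies wholly above the change of -45.6% estimated for Grem1. Among the 10 genes the median log2 fold change was -0.06, with 4 above 0 and 6 below, beside 0.00 over all genes tested, with 6921 above and 6647 below. Exons of Bmp4 and Bmpr1a overlap those of a gene on the opposite strand, annotated as protein coding beside Bmp4 and as antisense beside Bmpr1a, and the counting is not stated to use strand, so such reads may be shared.

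**Figure D2:**
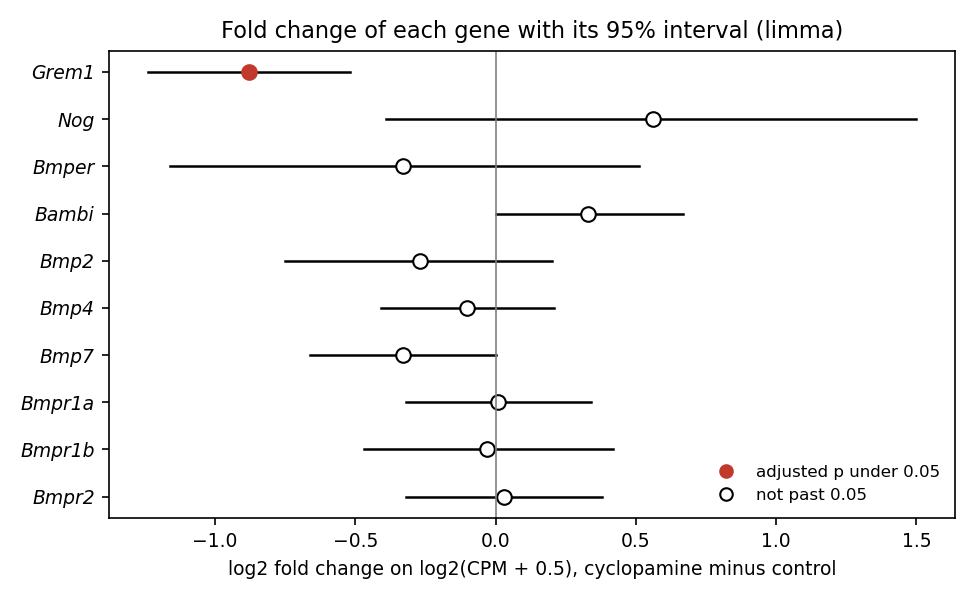
Log2 fold change of each gene, cyclopamine minus control on log2(CPM + 0.5), with limma's 95% interval as a horizontal line; a filled point marks an adjusted p under 0.05. The interval of Grem1 runs from -1.24 to -0.52, and those of the other 9 genes reach or cross 0.

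Grem1 was lower relative to each ligand within every cyclopamine library than within every control library. The CPM of Grem1 was 0.224 and 0.237 times that of Bmp4 in cyclopamine and 0.376 and 0.421 times in control. Relative to Bmp7 it was 0.480 and 0.560 times in cyclopamine and 0.714 and 0.815 times in control. Relative to Bmp2 it was 1.85 and 2.37 times in cyclopamine and 2.90 and 3.5 times in control. The difference of the mean log2 ratios was -0.78 for Bmp4, -0.60 for Bmp2 and -0.55 for Bmp7. An exact permutation test over the libraries, two-sided, gave p = 0.333 in each case, which is the smallest that 2 against 2 libraries allow. The ratios all share Grem1, so they are not results separate from its own fold change. Gene length cancels in these differences, and the ratios themselves are not per length.

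**Figure D3:**
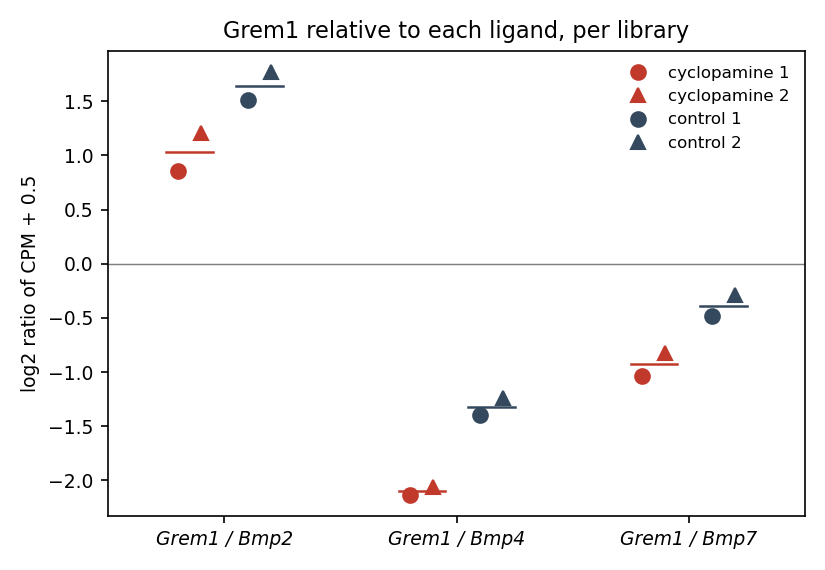
Log2 ratio of Grem1 to Bmp2, Bmp4 and Bmp7 within each library (CPM + 0.5), with short lines at the group means, cyclopamine left of control. For Bmp4 the mean is -2.10 in cyclopamine and -1.32 in control.

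Per length of annotated exon, the 10 genes spanned about the same range in both conditions. In cyclopamine the mean levels were 50.7 CPM per kilobase for Bmpr1a, 45.8 for Bmp4, 13.0 for Bambi, 11.4 for Bmp7, 5.73 for Grem1, 3.52 for Bmpr2, 3.20 for Bmp2, 2.61 for Bmpr1b, 1.25 for Nog and 0.373 for Bmper. In control the order was 50.3 CPM per kilobase for Bmpr1a, 49.2 for Bmp4, 14.4 for Bmp7, 10.6 for Grem1, 10.34 for Bambi, 3.89 for Bmp2, 3.48 for Bmpr2, 2.66 for Bmpr1b, 0.825 for Nog and 0.504 for Bmper. Grem1 and Bambi could not be placed in order in control, where their libraries overlapped (10.32 and 10.9 against 11.2 and 9.45 CPM per kilobase). In cyclopamine they were apart, at 5.48 and 5.98 CPM per kilobase for Grem1 and 13.6 and 12.4 for Bambi. The control libraries also overlapped for Bmpr1a with Bmp4, for Bmp2 with Bmpr2 and for Nog with Bmper.

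The rest of the pathway was described with 6 lists of 65 genes, of which 52 were tested, and 0 of the 52 passed in limma in either direction. Of the 52, 13 had an unadjusted p under 0.05, against 5.82% of all genes tested. The lists were chosen with earlier results of these data known, so this contrast is a description only. The median log2 fold change was 0.16, with 37 above 0 and 15 below. This lean varied with the libraries: the medians of the 6 lists ran from -0.06 to 0.44 with all libraries, and from -0.02 to 0.21 without control 2. The edgeR quasi-likelihood test on recovered reads called 0 of these genes as well, while DESeq2 and edgeR's exact test called 1, Sost. Over all genes these 3 tests called 40, 52 and 80. Omitting a library leaves 1 library in a group, and the genes of the lists that then passed in limma varied with the library omitted.

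Among 16 further antagonists and extracellular modulators, 6 had an unadjusted p under 0.05, and they lay on either side of control. Sost encodes sclerostin, which binds the WNT co-receptors LRP5 and LRP6 and was first described as a BMP antagonist. It measured 3.47 and 2.75 CPM in cyclopamine and 8.15 and 10.5 CPM in control (log2 fold change -1.44, SE 0.29, limma adjusted p = 0.0577). The authors' deposited table gives it a log2 fold change of -1.58 and a false discovery rate of 0.00426. Its relative Sostdc1, which encodes a secreted antagonist of BMP and WNT signals, ran the other way, with 9.55 and 8.10 CPM in cyclopamine and 4.54 and 3.38 CPM in control (1.07, SE 0.28, limma adjusted p = 0.255). Smoc1, a secreted BMP modulator gene needed for limb development, measured 14.0 and 17.9 CPM in cyclopamine and 21.5 and 44.8 CPM in control. The low-level genes Dand5 and Htra1 and the DAN-family gene Nbl1 had log2 fold changes of 1.14, 0.82 and 0.57.

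Among the further ligands, receptors and proteases, 1 gene of each list had an unadjusted p under 0.05, and among the Smads and their regulators 0 did. Of 7 further ligands tested, Gdf10 measured 25.3 and 32.9 CPM in cyclopamine and 20.5 and 19.0 CPM in control (log2 fold change 0.54, SE 0.19), and Bmp6 had a log2 fold change of 0.93 (SE 0.46). The median of the 7 was -0.06, with 3 above 0 and 4 below. Of 8 further receptors and co-receptors, Eng, the endoglin gene of endothelial cells, measured 22.6 and 28.5 CPM in cyclopamine and 17.2 and 15.9 CPM in control (0.60, SE 0.20). The summed level of 6 endothelial markers was 397 and 456 CPM in cyclopamine and 365 and 369 CPM in control, and its part in the Eng value was not tested. The type I receptor gene Acvr1 had a log2 fold change of 0.22. Of 5 proteases that process ligands or Chordin, Pcsk6 had -0.55 and Pcsk5 0.20. The 10 Smads and Smad regulators had a median of 0.11, with 9 above 0. Without control 2 their median was -0.02, with 4 above 0. Smad7, the feedback inhibitor, measured 72.4 and 47.1 CPM in cyclopamine and 74.8 and 27.8 CPM in control. Its spread within each group was larger than the difference between the groups. Ski, a Smad co-repressor gene, had 0.17.

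All 6 BMP response genes tested had values above control, with a median log2 fold change of 0.44 and 0 past the threshold in limma. The 4 with an unadjusted p under 0.05 were Msx2 (0.52, SE 0.20), Id1 (0.51, SE 0.21), Id2 (0.45, SE 0.19) and Id3 (0.42, SE 0.17), which encode a homeobox factor and inhibitors of helix-loop-helix factors. Id1 measured 43.7 and 48.9 CPM in cyclopamine and 41.3 and 25.4 CPM in control. Control 2 was the lowest library for each of the 6, and the median was 0.15 without control 2 and 0.68 without control 1. Red cell markers lay on the same side: their summed level was 2133 and 1252 CPM in cyclopamine and 1304 and 605 CPM in control, with control 2 again lowest, and all 5 had log2 fold changes above 0 (median 0.81, 0 past the threshold). The median log2 fold change was also above 0 for markers of myoblasts (0.33), endothelium (0.22) and limb mesenchyme (0.16). For markers of neural tube and neurons it was -2.33. The part of these tissues in the values of the response genes was not tested.

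**Figure D4:**
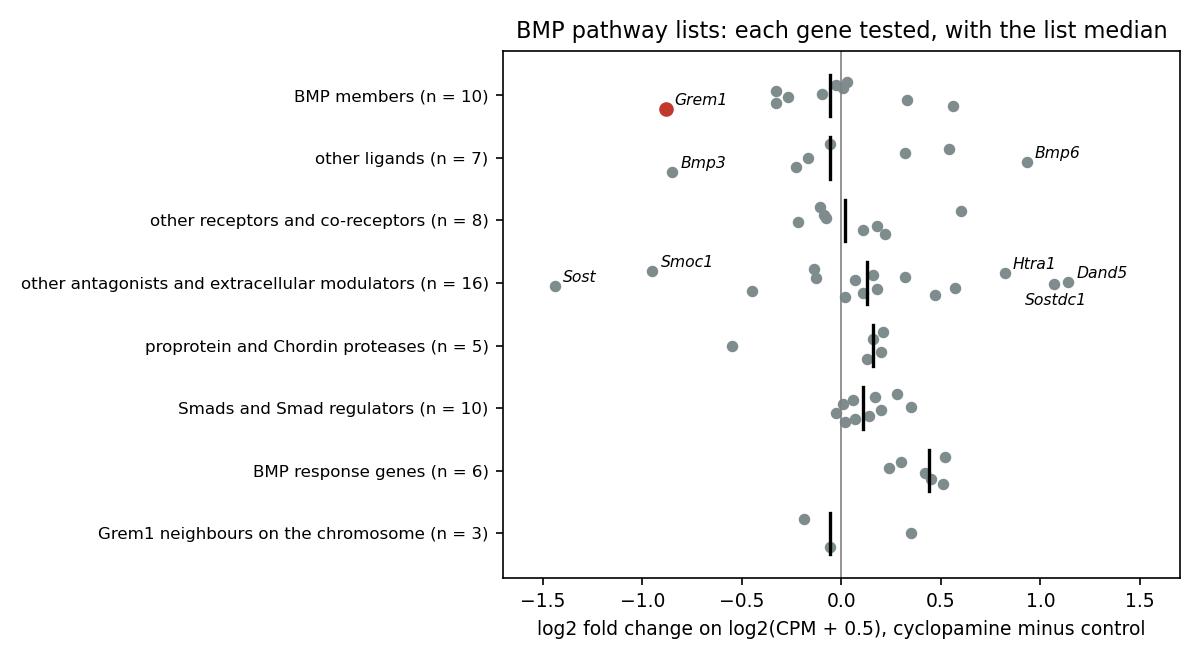
Log2 fold change of every tested gene of the 10-gene set and of 7 related lists, cyclopamine minus control, with a vertical line at each list's median. Grem1 is the red point at -0.88; Sost lies furthest below 0 at -1.44 and the BMP response genes all lie above 0.

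The genes next to Grem1 on the chromosome had groups that overlapped, as did most genes tested (32.6% did not). Fmn1, whose introns hold known limb enhancers of Grem1 in the mouse, spans chr2:113327736-113716767 and measured 7.89 and 6.97 CPM in cyclopamine and 7.53 and 8.01 CPM in control (log2 fold change -0.06, SE 0.26). Scg5 measured 2.05 and 3.0 CPM in cyclopamine and 1.03 and 3.09 CPM in control (0.35, SE 0.44). Arhgap11a measured 89.1 and 95.2 CPM in cyclopamine and 91.5 and 121 CPM in control (-0.19, SE 0.16). A difference between Grem1 and its neighbours was not tested.

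Over the 4 libraries, the genes with the profile closest to that of Grem1, by root mean square distance of centred log2(CPM + 0.5) among the 9634 genes that averaged 10 CPM or more, were Cdk6, Msi2, Susd4, Apcdd1 and Dock6. Their distances were 0.0768, 0.1, 0.106, 0.112 and 0.115 on the log2 scale. Cdk6, a cell cycle kinase gene, measured 13.4 and 13.0 CPM in cyclopamine and 24.8 and 27.8 CPM in control. Msi2, which encodes an RNA-binding protein, measured 184 and 166 CPM in cyclopamine and 302 and 322 CPM in control. With 4 libraries, such likeness is a description only. Fgf8 and Fgf4, growth factor genes of the ridge, lay further from control than Grem1. Fgf8 measured 10.18 and 9.40 CPM in cyclopamine and 30.85 and 32.3 CPM in control (-1.64, SE 0.20). Fgf4 measured 0.316 and 0.486 CPM in cyclopamine and 5.67 and 9.70 CPM in control (-3.15, SE 0.40). The summed level of 10 ridge and limb ectoderm markers, Fgf8 among them, was 335 and 268 CPM in cyclopamine and 323 and 278 CPM in control. Of these 10, 3 had log2 fold changes below 0 and 1 passed the threshold as lower (median 0.14). Shh itself measured 6.07 and 8.02 CPM in cyclopamine and 7.84 and 14.5 CPM in control, and it did not pass the test.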

How the data were processed

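The deposited signal per gene and library was scaled by the authors to about 1000000 reads of an effective library size (CPM). The submitters' processing notes name mm10, edgeR 3.4.2, HTSeq 0.5.4p5, TopHat2 2.0.9, SAMtools and Bowtie, without roles. The authors' deposited table gives log2 fold changes, mean log2 CPM, p-values and false discovery rates. Its test is not stated. It holds 80 genes under 0.05, 19 higher and 61 lower, and edgeR's exact test without a filter on recovered reads gave the same counts. For Grem1 both gave a log2 fold change of -0.89. The deposited values are therefore not separate evidence beside that exact test. Every CPM value was a whole multiple of 1 read's worth (within 0.01 of a read), so reads were recovered. Genes that averaged 1 CPM or more were fitted on log2(CPM + 0.5) by limma 3.58.1 (R 4.3.3), with an intensity trend; tests were two-sided and Benjamini-Hochberg adjusted over 13568 genes, threshold 0.05; the scale understates changes of low genes. Alternatives were edgeR 4.0.16 and DESeq2 1.42.0 on recovered reads, other scalings, pseudocounts, filters and variance models, the replicate number as a block, and omission of each library in turn. The members and lists were chosen with earlier results of these data known. Named genes are the 10 members and, of each wider list, those with an unadjusted p under 0.05 and at least the 2 of smallest p; Fmn1, Shh, Fgf4, Fgf8 and the tissue markers were named outside this rule, after their values were seen. Hjv was matched by its older symbol. Exon lengths are from GENCODE vM21, which the authors may not have used. Counting error alone limits Nog and Bmper most, at 10 to 41 reads per library.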

Additional observations from a re-analysis of the deposited data

How the results depend on the processing

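Over the alternatives run, the log2 fold change of Grem1 stayed between -0.94 and -0.82, and its adjusted p ran from 4.92e-06 to 0.355. Its call ended without a filter on low values and without an intensity trend (-0.88 each), with scaling by total reads and by the upper quartile (-0.87 each, adjusted p 0.0775 and 0.0554), and in 3 of the 4 fits with a library omitted; each time 0 of the 10 genes passed, and the count ran from 0 to 1 over those 4 fits. The cause was not tested. The count over all genes, 38, became 80 with edgeR's exact test without a filter, 2 in limma without a filter, 0 without that trend (837 had an unadjusted p under 0.05), 20 with scaling by total reads, and 43 to 122 without each library in turn (79 without control 1, 122 without cyclopamine 1, 84 without cyclopamine 2). Genes of the wider lists went from 0 to 1 with DESeq2 and with edgeR's exact test, and ran from 0 to 4 without each library. The replicate numbers deviated together across genes (r = 0.27 for the difference of replicate 1 and 2 in cyclopamine with that in control), but the labels tie them to no litter or day; with the replicate number as a block, 351 genes passed, with Grem1 (adjusted p = 4.92e-06) as the only one of the 10, and 7 of the wider lists. Small differences changed sign without a library: Bmpr1a ran from -0.05 to 0.07 (-0.03 without cyclopamine 2), Bmpr1b from -0.16 to 0.10 (0.06 without cyclopamine 2) and Bmpr2 from -0.15 to 0.22. The ratios of Grem1 to the ligands kept their direction in all alternatives run, from -0.86 to -0.43 without each library in turn. With a filter at 5 CPM, Nog and Bmper gave no value.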
